A study of Fukomys damarensis with 16 samples.

Results

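The ovary of a breeding female Damaraland mole-rat, Fukomys damarensis, was compared with the ovary of a 3-year-old non-breeding female, by RNA sequencing of 1 library each. These are 2 of the 16 libraries of a study of breeding and non-breeding animals, in which kidney, liver, brain and testis make up the other 14. The comparison takes every gene at 1 RPKM or more in either ovary library, which were 14109 of the 21082 genes in the table (RPKM is a read count scaled for gene length and library depth). The measure is the log2 ratio of RPKM + 1, breeding over non-breeding, on a scale that understates the change of low genes.

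The groups used were as follows. The ovary libraries came from a breeding female of unstated age and from a non-breeding female of 3 years. Kidney, liver and frontal brain were each sampled from females of either status and from a breeding male, and kidney, liver and brain (not labelled frontal) from a non-breeding male. Testis was sampled from males of either status. Non-breeding females were labelled 3 years old and non-breeding males 5, and breeders have no age, so breeding status and age cannot be told apart. The labels name no alleles or agents. They do not say which libraries share an animal, whether tissues were pooled, or at which stage of the cycle or of pregnancy an ovary was taken.

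In Damaraland mole-rats a single female of a colony usually breeds, and her helpers are held back from ovulating while they stay in the colony. The mammalian ovary holds oocytes in follicles, whose granulosa and theca cells make steroid hormones, and after ovulation a follicle becomes a corpus luteum that makes progesterone. A sample of whole ovary mixes these cells with stroma, vessels and blood. In such bulk RNA, fewer cells of a type and less RNA per cell cannot be told apart.

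The breeding ovary library held 23295227 reads on genes, against 17641918 in the non-breeding one, and the other 14 held 15393003 to 27593857. The breeding ovary had 13796 genes at 1 RPKM or more and the non-breeding ovary 13288. The 100 most read genes took 21.1% of reads in the ovary of the breeding female and 20.8% in that of the non-breeding female. The identifiers carry no gene names, and 0 of 21082 was found in the RefSeq table of the species with its 33132 genes, so markers of ovarian cell types could not be looked up and the labelled tissue could not be checked against them. The sex label could be checked: 8 genes were read 10 times or more in each male kidney, liver and brain library, and the 6 female ones together reached at most 1% of the male total. These 8 genes had 0 reads in the breeding ovary and 0 in the non-breeding ovary, a count that allows up to 3 reads in each. With 1 library a status, no test of the ovary difference exists and no p-value is given. The spread between libraries of kidney and of brain serves as a yardstick in its place.

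The breeding ovary differed from the non-breeding ovary mainly by genes that were higher in it. Of the 14109 genes, 896 were 2-fold or more higher in the breeding ovary (6.35%) and 270 were 2-fold or more lower (1.91%), which leaves 91.7% within 2-fold. Higher genes made up 76.8% of those past 2-fold, and their share grew with the size of the difference. At 4-fold or more, 185 genes were higher (1.31%) and 20 lower (0.142%). At 8-fold or more there were 65 higher (0.461%) and 2 lower (0.0142%), and at 16-fold or more 28 higher and 0 lower. The median log2 ratio of all genes was 0.02, the quartiles were -0.24 and 0.33, and the 5th and 95th percentiles were -0.68 and 1.13.

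Many of the higher genes were near or under 1 RPKM in the non-breeding ovary. Their median level was 8.16 RPKM in the breeding ovary and 1.57 RPKM in the non-breeding ovary, where 378 of the 896 stood under 1 RPKM. The lower genes had a median of 7.003 RPKM in the breeding ovary and 19.2 RPKM in the non-breeding ovary. Genes at 10 RPKM or more in the breeding ovary and under 1 RPKM in the non-breeding ovary numbered 32, and 0 genes showed the opposite pattern. Likewise 108 genes were at 1 RPKM or more in the breeding ovary and listed at 0 in the non-breeding ovary, against 2 the other way round. In the richer ovary library, 31 of the 896 higher and 9 of the 270 lower genes had under 20 reads. There 331 of the higher and 39 of the lower genes stood under 5 RPKM. Reads in the poorer library also set the ratio, and the part of counting error in these counts was not tested. Of 1022 genes at 100 RPKM or more in either ovary, 79 were 2-fold or more higher and 44 lower. Over all genes measured the shares were 6.35% and 1.91%. A gene can pass the 100 RPKM limit through the ovary where it is higher, so larger shares past 2-fold are built in.

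**Figure D1:**
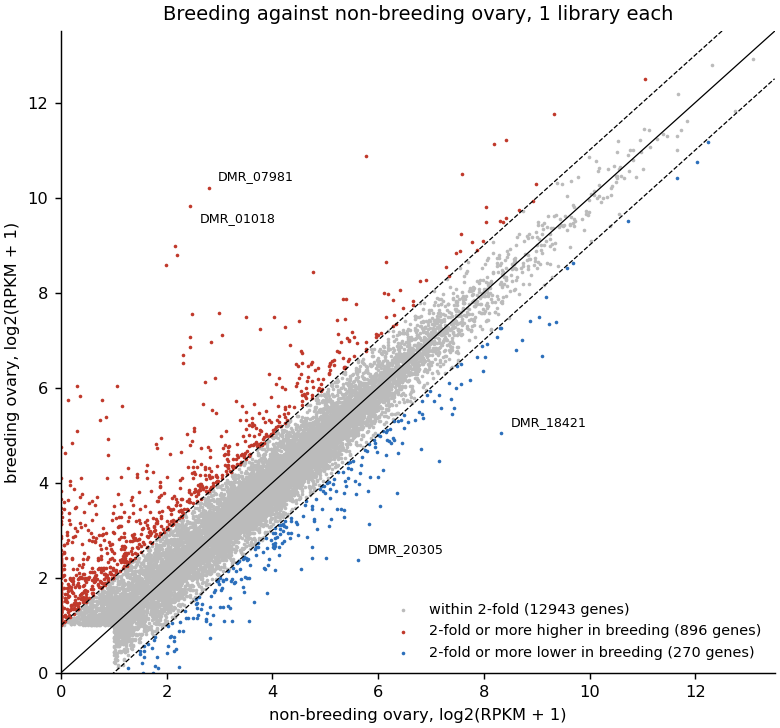
Levels of the 14109 genes in the breeding ovary (vertical axis) and the non-breeding ovary (horizontal axis), both as log2(RPKM + 1), 1 point a gene. The solid line marks equal levels and the dashed lines a 2-fold difference. The 896 red points reach much farther from the line than the 270 blue ones, above all at low levels in the non-breeding ovary.

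The limits used to choose genes fell in a dense part of the data. At the limit of 1 RPKM, 386 genes had their higher ovary value at most 25% above it, with log2 ratios of -0.999 to 1.17 and a median of 0.17. Just below it, 389 genes had theirs at 0.8 RPKM or more, with log2 ratios of -0.95 to 0.99 and a median of 0.15. At the 2-fold limit, the nearest gene inside had a log2 ratio of 1.001 and the nearest outside 0.9995, and on the lower side the values were -1.001 and -0.9993.

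Measured against kidney and brain, the number of genes past 2-fold in the ovary was not unusual, but the number of large differences was. The 6 pairs of kidney libraries had 493 to 1699 genes past 2-fold (median 1018.5) and the 6 pairs of brain libraries 350 to 1257 (median 486.5), against 1166 in the ovary. These pairs differ in sex, in status or in both, and each library enters 3 of them. Non-breeding females and males also differ in labelled age, breeders have none, and the non-breeding male brain is not labelled frontal. The SD of the log2 ratio over genes was 0.63 in the ovary pair, 0.45 to 0.71 in the kidney pairs and 0.41 to 0.60 in the brain pairs. The ovary value is 1.23 times the median of the 12 pairs and exceeds 11 of them. The part of the distribution between the 16th and 84th percentile was not wider: its half-width was 0.45 in the ovary, against a median of 0.44 over the 12 pairs. The tail was longer, with 67 genes past 8-fold in the ovary pair, 20 to 48 in kidney pairs and 0 to 16 in brain pairs. With genes at 1 RPKM or more in either library, the imbalance was also larger than in kidney and brain. The commoner direction took 76.8% of the genes past 2-fold in ovary, 56.0% to 68.6% in kidney and 53.1% to 66.0% in brain. The ovary share fell to 68.2% with 1 RPKM required in both libraries and to 68.4% with 10 RPKM in either. Those values lie within the kidney range, but the kidney and brain shares were not recomputed at these limits. Outside this yardstick it took 52.2% to 71.3% in liver pairs. In the testis pair it took 80.6%, more than in ovary, with 98 genes higher and 408 lower in the breeding testis.

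The pairs of female libraries that differ in status are the closest parallel, and as in ovary the breeder's age is not given. The breeding female kidney had 727 genes 2-fold or more higher and 571 lower than the non-breeding one, with 20 higher and 9 lower at 8-fold. The breeding female frontal brain had 231 higher and 119 lower, and 0 genes past 8-fold in either direction. In liver, the breeding female had 1131 higher and 490 lower, with 164 higher and 10 lower at 8-fold, so the longest tail among female pairs was in liver rather than ovary. The breeding female liver stands apart from the other livers: its pairs with them had 1485 to 1728 genes past 2-fold, while pairs without it had 688 to 1084.

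**Figure D2:**
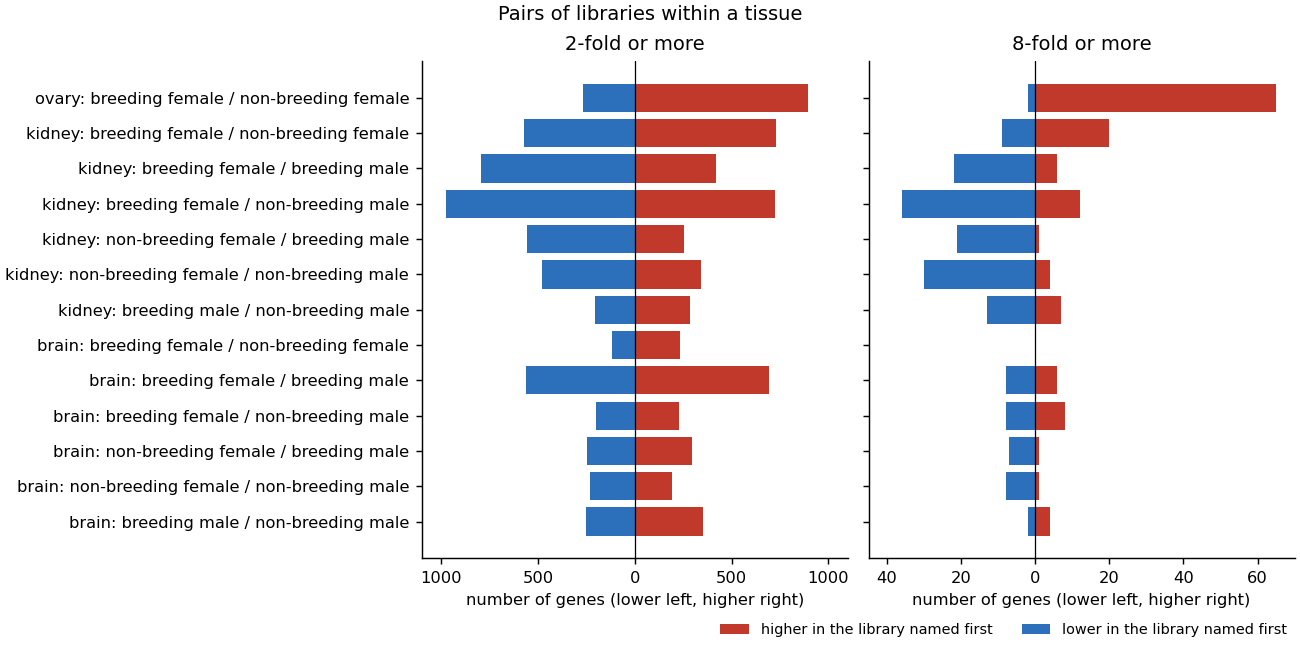
Number of genes 2-fold or more (left) and 8-fold or more (right) higher (red, to the right) or lower (blue, to the left) in the library named first, for the ovary pair and for all 6 pairs within kidney and within brain. The ovary bar of 896 higher against 270 lower genes is the most one-sided, and its 65 genes at 8-fold exceed every other bar in the right panel.

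For single genes the same yardstick was the range over the 4 libraries of a tissue. Of the genes past 2-fold in ovary, 544 of the 896 higher and 205 of the 270 lower ones reached 1 RPKM in at least 1 kidney and 1 brain library. The ovary difference was larger than both the kidney range and the brain range for 394 of the 544 (72.4%) and for 143 of the 205 (69.8%), against 11.8% of all 12424 genes so measured. That share has to be high for genes chosen by a large ovary difference. In tissues that did not choose them, 43.4% of the higher genes had a kidney range of 2-fold or more and 27.6% a brain range of 2-fold or more, against 19.1% and 12.8% of all genes.

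The 5 genes with the highest log2 ratio of RPKM + 1 shared a pattern across tissues. Without the pseudocount, ranks 6, 7 and 19 had higher ratios of levels than these 5, at 283.1, 590.1 and 417.8, on 7, 2 and 1 reads in the non-breeding ovary, and rank 14 had none there. DMR_07981, the first, has a coding length of 1158 bases. It stood at 1180.8 RPKM in the breeding ovary (41437 reads, 95% Poisson interval of the level 1169.5 to 1192.2) and at 5.95 RPKM in the non-breeding ovary (159 reads, 5.06 to 6.95). The ratio of levels was 198.3 (95% interval 169.7 to 233.2, exact binomial), and such intervals cover counting error alone. Its levels in liver were 15771.6 RPKM in the breeding female, 62.8 in the non-breeding female, 285.3 in the breeding male and 321.6 in the non-breeding male. In kidney they were 201.3 RPKM in the breeding female, 65.4 in the non-breeding female, 139.8 in the breeding male and 85.4 in the non-breeding male. In brain the breeding female held 7.01, the non-breeding female 0.529, the breeding male 4.73 RPKM and the male non-breeder 1.56 RPKM, and the breeding testis held 3.25 and the non-breeding testis 2.19. The breeding female was thus the highest and the non-breeding female the lowest of the 4 libraries in liver, kidney and brain alike.

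DMR_01018, with a coding length of 564 bases, stood at 903.6 RPKM in the breeding ovary (15444 reads, 95% Poisson interval of the level 889.4 to 918.0) and at 4.46 RPKM in the non-breeding ovary (58 reads, 3.39 to 5.76). The ratio of levels was 202.6 (exact binomial 95% interval 156.7 to 267.0). In liver it stood at 11480.4 RPKM in the breeding female, 141.1 in the non-breeding female, 371.5 in the breeding male and 567.0 in the non-breeding male. In kidney the breeding female held 300.6, the non-breeding female 269.6, the breeding male 168.3 and the male non-breeder 130.5 RPKM. In brain the breeding female held 30.1, the non-breeding female 12.1, the breeding male 16.3 and the male non-breeder 8.22 RPKM, and the breeding testis held 2.61 and the non-breeding testis 2.32. The breeding female liver was the highest of the 14 other libraries for both genes, and kidney and brain varied far less than liver and ovary.

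The genes ranked 3 to 5 had like profiles. Ranks 3 and 4 have consecutive identifiers, coding lengths of 378 and 366 bases and nearly equal levels, so they may be copies that share reads and are not 2 independent observations. Across the 5, the breeding ovary held 382 to 1180.8 RPKM and the non-breeding ovary 2.94 to 5.95 RPKM, ratios of 124.6 to 202.6. The breeding female liver held 2482.2 to 15771.6 RPKM, 15.2 to 49.0 times the next liver, and the other 3 livers 62.8 to 567.0 RPKM. Together the 5 genes took 0.341% of the reads on genes in the breeding ovary and 0.00196% in the non-breeding ovary. Their level in the breeding ovary was 6.87% to 15.4% of that in the breeding female liver. Among the 20 most abundant liver genes the breeding ovary had a median of 0.0187% of the breeding female liver's level (range 0 to 96.9%). Of these 20, 6 were 2-fold or more higher and 0 lower than in the non-breeding ovary. Over all genes measured in ovary the shares were 6.35% and 1.91%. The ratio of the breeding ovary to the breeding female liver thus differed widely from gene to gene. The part of liver RNA in the ovary libraries was not tested.

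Further down the list the levels in other tissues went several ways. Of the 20 highest ratios, 9 had the breeding female liver as the highest of the other 14 libraries, and in 8 it exceeded the next liver 10-fold or more. The breeding ovary itself was above all 14 other libraries in 8 of the 20. Among these the gene ranked ninth (coding length 2163 bases) had the highest level, with 1883.3 RPKM in the breeding ovary, 53.7 in the non-breeding ovary and at most 30.6 elsewhere. The tenth, with 186.7 RPKM in the breeding ovary, against 4.57 in the non-breeding one, reached no more than 0.366 RPKM in any other library, so it exceeded the highest of them 510.6 times, against 61.5 times for the ninth. The sixth was instead a gene of every liver, at 3885.9 to 5156.3 RPKM there, with 64.2 RPKM in the breeding ovary, against 0.227 in the non-breeding one. The fourteenth held 25.8 RPKM in the breeding ovary (752 reads) and was listed at 0 in the non-breeding one. Outside the ovary it was highest in brain with 0.974 to 3.03 RPKM.

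The genes with the lowest log2 ratios of RPKM + 1 had smaller differences. DMR_18421 (coding length 762 bases) stood at 31.9 RPKM in the breeding ovary (736 reads, 95% Poisson interval of the level 29.6 to 34.3) and at 321.4 RPKM in the non-breeding ovary (5648 reads, 313.1 to 329.9), a ratio of 0.0992 (exact binomial 95% interval 0.0917 to 0.107). It was a gonadal transcript in these libraries, with 119.0 RPKM in the breeding testis, against 180.4 in the non-breeding one, and at most 1.19 RPKM in the 12 others. DMR_20305 (555 bases) stood at 4.16 RPKM in the breeding ovary (70 reads, 3.24 to 5.26) and 48.3 RPKM in the non-breeding ovary (618 reads, 44.6 to 52.2), a ratio of 0.0862 (0.0663 to 0.110). In brain it held 67.2 RPKM in the breeding female, 43.9 in the non-breeding female, 21.4 in the breeding male and 31.5 in the non-breeding male. The breeding testis held 27.3 RPKM and the non-breeding testis 13.7, and kidney and liver at most 1.47. The non-breeding ovary was above the whole range of the testes for the first gene, and within the range of the brain libraries for the second.

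Among the 20 lowest ratios, 4 genes formed pairs with consecutive identifiers, DMR_18421 and DMR_20305 being 1 of each pair, and the partners had like profiles. The partner of DMR_18421 held 20.8 RPKM in the breeding ovary, against 140.3 in the non-breeding one, while the breeding testis held 74.3 and the non-breeding testis 168.6. That of DMR_20305 held 99.9 RPKM in the breeding ovary, against 549.3 in the non-breeding one, with 200.3 to 291.1 RPKM in brain. The labels and files do not say whether consecutive identifiers are neighbours in the genome or share reads. The non-breeding ovary was above all 14 other libraries in 9 of the 20. Some of the 20 were far more abundant outside the ovary, as the eighteenth, which had 0.658 RPKM in the breeding ovary and 6.05 in the non-breeding one, while it held 371.3 to 980.0 RPKM in kidney.

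**Figure D3:**
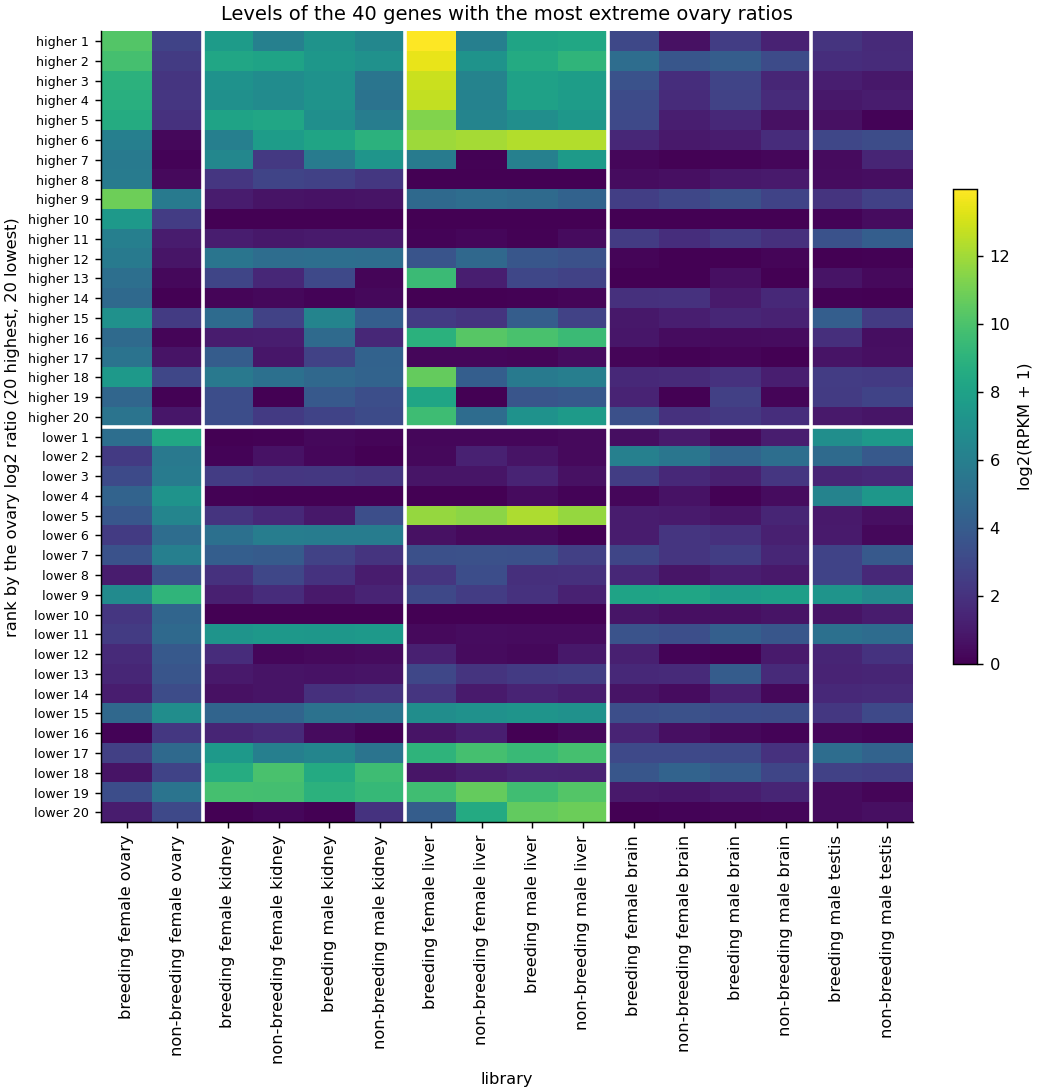
Levels, as log2(RPKM + 1) by colour, of the 20 genes with the highest (upper block) and the 20 with the lowest (lower block) ovary log2 ratio, in the 2 ovary libraries and the other 14. The first 5 rows are brightest in the breeding female liver, and many rows of the lower block hold a moderate level in the non-breeding ovary.

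The most abundant ovarian transcripts were mostly shared. The 20 most abundant genes of each ovary had 15 in common, and the 100 most abundant had 81 in common. Of the 119 genes in the 100 most abundant of either, 16 were 2-fold or more higher and 7 lower. Both shares were above those of all genes measured, 6.35% and 1.91%. The most abundant gene that was higher held 5777.0 RPKM in the breeding ovary, against 2108.1 in the non-breeding one, and was otherwise highest in the breeding testis at 526.2. The most abundant that was lower held 2289.2 RPKM in the breeding ovary, against 4867.3 in the non-breeding one, and was otherwise highest in the non-breeding testis at 423.2. Both belong to the testis-enriched class described next, and they differ in opposite directions.

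The genes past 2-fold were then described by their levels in the 14 libraries of other tissues, which played no part in choosing them. A gene was called enriched in a tissue if it reached 1 RPKM in every library of it and its mean log2 level was at least 2 above that of each other non-ovarian tissue. It was called broad if it reached 1 RPKM in all 14 and was not enriched, low if it stayed under 1 RPKM in all 14, and mixed otherwise. An enriched gene can also reach 1 RPKM in all 14. The share of genes higher in the breeding ovary was larger in each enriched class than in the broad class. Of 247 kidney-enriched genes measured in ovary, 62 were 2-fold or more higher (25.1%) and 8 lower (3.24%). Of 407 liver-enriched genes 86 were higher (21.1%) and 19 lower (4.67%), and of 771 brain-enriched genes 98 were higher (12.7%) and 18 lower (2.33%). Testis-enriched genes were close to the share of all genes, with 43 of 657 higher (6.54%, against 6.35% of all genes) and 14 lower (2.13%, against 1.91%). The sizes of these classes depend on the scaling. With levels scaled to reads on genes, 187 liver-enriched genes (26.2% higher) and 1060 testis-enriched genes (7.45% higher) were measured in ovary.

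Broad genes, which made up 66.6% of those measured, gave 24.2% of the higher and 39.3% of the lower genes. Of 9397 broad genes 217 were higher (2.31%) and 106 lower (1.13%). The 2492 mixed genes gave 359 higher (14.4%) and 98 lower (3.93%). Median log2 ratios were 0.39 for kidney-enriched, 0.28 for liver-enriched, 0.21 for brain-enriched, 0.19 for mixed, -0.04 for testis-enriched and -0.02 for broad genes, against 0.02 for all. Kidney- and liver-enriched genes are present in ovary at modest levels, with medians of 6.45 and 12.7 RPKM in the breeding ovary and 5.32 and 8.77 RPKM in the non-breeding ovary. The order of the classes moves with level as well as with tissue: among all genes measured, the fifth with the lowest mean level over the 16 libraries had 17.5% past 2-fold, and the fifth with the highest 4.89%. How much of the order level accounts for was not tested.

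The same classes gave a different order in other female pairs. In the kidney pair, 11.6% of the liver-enriched, 7.52% of the brain-enriched and 4.97% of the testis-enriched genes were 2-fold or more higher in the breeding female, against 5.25% of all genes. In the frontal brain pair the shares were 2.50% for kidney-enriched, 3.33% for liver-enriched and 3.81% for testis-enriched genes, against 1.60% of all. In the liver pair they were 16.5% for kidney-enriched, 9.39% for brain-enriched and 15.0% for testis-enriched genes, against 8.42% of all. The share of higher genes thus exceeded that of all genes for classes enriched in another tissue, apart from testis-enriched genes in kidney. In the kidney pair 6.90% of the liver-enriched, 3.83% of the brain-enriched and 4.32% of the testis-enriched genes were lower, against 4.12% of all. In the frontal brain pair the lower shares were 2%, 2.22% and 1.63% for kidney-, liver- and testis-enriched genes, against 0.823%. In the liver pair they were 7.34%, 8.16% and 3.58% for kidney-, brain- and testis-enriched genes, against 3.65%. Most of these classes thus exceeded all genes in both directions.

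**Figure D4:**
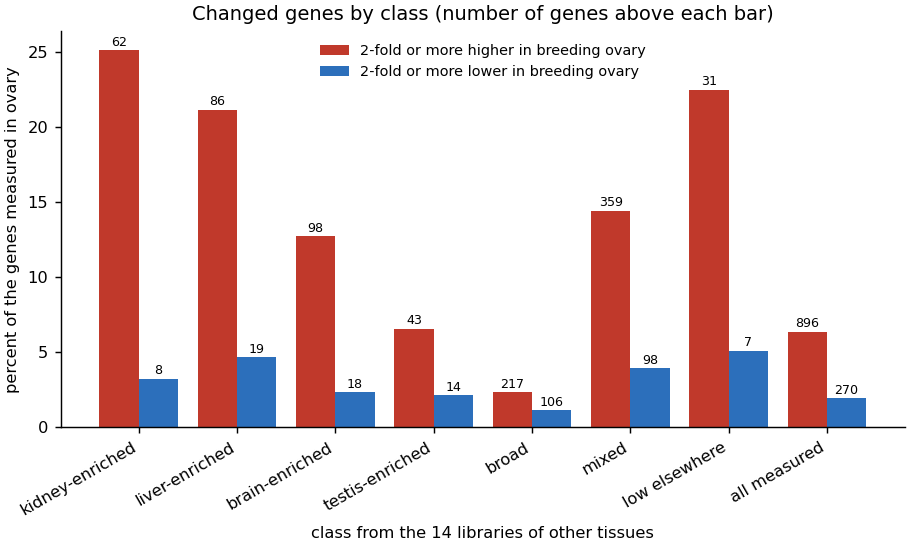
Share of the genes of each class, in percent of those measured in ovary, that were 2-fold or more higher (red) or lower (blue) in the breeding ovary, with the number of genes above each bar. Kidney-enriched genes have the highest red bar at 25.1% and broad genes the lowest at 2.31%.

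Genes with little expression outside the ovary were few. The low class held 138 genes measured in ovary, of which 31 were 2-fold or more higher (22.5%, against 6.35% of all genes) and 7 lower (5.07%, against 1.91%), with a median log2 ratio of 0.09. They reached 10 RPKM in 16 cases and 100 RPKM in 3, and all 3 were higher in the breeding ovary: 186.7 RPKM against 4.57 in the non-breeding ovary, 114.2 against 4.40, and 107.6 against 22.3. Together the low class took 0.141% of reads on genes in the breeding ovary and 0.0806% in the non-breeding ovary. A further group of 977 genes was at 1 RPKM or more in both testes and under 1 RPKM in every kidney, liver and brain library. Of these, 159 (16.3%) were measured in ovary, 127 reaching 1 RPKM in the breeding ovary and 133 in the non-breeding one. Their median log2 ratio was -0.09, with 17 higher (10.7%, against 6.35% of all genes) and 6 lower (3.77%, against 1.91%).

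The position of the ovaries within the range of other tissues differed between the directions. For the 896 higher genes, the breeding ovary was above all 14 other libraries in 214 (23.9%), and the non-breeding ovary was below all 14 in 104 (11.6%). For the 270 lower genes, the breeding ovary was below all 14 others in 10 (3.70%), and the non-breeding ovary was above all 14 in 124 (45.9%). Among the 12943 genes within 2-fold, the breeding ovary was above all 14 in 11.0% and the non-breeding ovary in 12.2%. There the breeding ovary was below all 14 in 4.87% and the non-breeding ovary in 5.15%. The same ovary values chose the genes, and the lower genes had the higher median level in their richer library, so these shares are a description. Of the 270 lower genes, 53 were above all 14 in the breeding ovary too. Genes at least 10 times the highest other library numbered 24 among the higher genes, by the breeding ovary, and 12 among the lower genes, by the non-breeding ovary. No such count over all genes measured was made, so whether these numbers are large cannot be said.

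By tissue of highest level outside the ovary, the higher genes leaned to liver and kidney. Liver was the highest of the 4 tissues for 32.5% of them, kidney for 23.2%, brain for 24.1% and testis for 20.2%, against 26.0%, 18.3%, 26.9% and 28.8% of all genes measured. For the lower genes the shares were 23.7%, 25.6%, 25.6% and 25.2%. By single library, 154 of the 896 higher genes (17.2%) had the breeding female liver as the highest of the 14, against 6.26% of all genes and 9 of the 270 lower genes (3.33%). Deposited liver values are high relative to other tissues, for all groups of genes alike.

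Pearson correlations of log2 levels over the 14109 genes followed the same lines. The breeding ovary correlated more strongly than the non-breeding ovary with each of the 4 kidney libraries (0.724 to 0.756, against 0.717 to 0.737) and each of the 4 livers (0.688 to 0.691, against 0.654 to 0.686). It correlated less strongly with all 4 brain libraries (0.590 to 0.642, against 0.599 to 0.644) and both testes (0.657 to 0.664, against 0.681 to 0.695). These are values across genes, which are not independent replicates, and they share the ovary libraries.

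The breeding and non-breeding libraries of other tissues share no library with the ovary pair, so the genes past 2-fold in ovary could be followed there. In the female liver pair, 630 of the 896 higher genes were measured, and 185 of them (29.4%) were also 2-fold or more higher in the breeding female, against 8.42% of all genes. Lower there were 41 of the 630 (6.51%, against 3.65% of all genes). In the female kidney pair 107 of 691 were higher (15.5%, against 5.25% of all) and 34 lower (4.92%, against 4.12%). In the female frontal brain pair 25 of 598 were higher (4.18%, against 1.60%) and 12 lower (2.01%, against 0.823%). Genes higher in the breeding ovary were thus past 2-fold more often than all genes in these 3 tissues, in both directions.

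Male kidney and male liver showed smaller shares than the female pairs, set against smaller shares of all genes. Male brain showed larger shares than female frontal brain, set against larger shares of all genes. Higher in the breeding male were 59 of 679 in kidney (8.69%, against 2.09% of all genes), 47 of 597 in liver (7.87%, against 2.75%) and 45 of 613 in brain (7.34%, against 2.40%). Lower in the breeding male were 32 in kidney (4.71%, against 1.5%), 29 in liver (4.86%, against 2.52%) and 20 in brain (3.26%, against 1.74%). In testis 13 of 650 were higher (2%, against 0.634%) and 31 lower (4.77%, against 2.64%). The medians of the 896 genes stayed small in these pairs, from -0.13 in testis to 0.17 in male kidney, and reached 0.26 in female kidney and 0.32 in female liver. The part of expression level in these shares was not tested.

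In the female liver pair, as in several others, the share of higher genes grew with the size of the ovary ratio. Of the 65 genes 8-fold or more higher in the breeding ovary, 44 were measured in the female liver pair, and 26 of them (59.1%) were 2-fold or more higher in the breeding female, with 6 lower (13.6%) and a median log2 ratio of 4.13. Over all genes of that pair 8.42% were higher and 3.65% lower. Of those 4- to 8-fold higher in ovary, 30 of 79 (38.0%) were higher in the breeding female liver, and of those 2- to 4-fold higher 129 of 507 (25.4%). In the male liver pair 6 of 42 of the 8-fold genes (14.3%, against 2.75% of all genes) were higher in the breeding male. Outside liver, the 8-fold genes were higher in 11 of 48 cases in female kidney (22.9%, against 5.25% of all genes) and 13 of 47 in male kidney (27.7%, against 2.09%). They were higher in 8 of 32 cases in female frontal brain (25%, against 1.60%), 4 of 31 in male brain (12.9%, against 2.40%) and 4 of 34 in testis (11.8%, against 0.634%). For 2- to 4-fold and 4- to 8-fold genes the shares were 6.40% and 12.9% in male kidney and 7.04% and 9.72% in male liver. They were 2.81% and 4.48% in female frontal brain and 1.31% and 2.47% in testis. In female kidney (13.6% and 23.3%) and male brain (6.03% and 14.7%) the 8-fold genes did not exceed the 4- to 8-fold genes. The share of 8-fold genes higher in the breeding library was thus above that of all genes in each of the 7 pairs. It was the highest in female liver. Relative to all genes it stood further above in male kidney, female frontal brain and testis, on 4 to 13 genes each. The share of 8-fold genes lower in the breeding library was also above that of all genes in each pair. Lower were 10.4% in female kidney (against 4.12%), 10.6% in male kidney (against 1.5%) and 4.76% in male liver (against 2.52%). In female frontal brain 3.1% were lower (against 0.823%), in male brain 6.45% (against 1.74%) and in testis 5.88% (against 2.64%).

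Because the breeding female liver stands apart, a comparison added after the data were seen set it against the other livers, and these against each other. Against the breeding male liver it was 2-fold or more higher for 25 of 42 of the 8-fold genes (59.5%), and against the non-breeding male liver for 25 of 42 (59.5%). Without the breeding female liver, the non-breeding female liver was 2-fold or more lower than the breeding male liver for 28 of 44 (63.6%, against 5.14% of all genes) and lower than the non-breeding male liver for 20 of 43 (46.5%, against 3.72%). Between the 2 male livers 8 of 42 were past 2-fold, 6 of them higher in the breeding male. For many of these genes the non-breeding female liver was thus low, and the breeding female liver high, against the male livers. Whether 1 animal gave both the breeding ovary and the breeding female liver, and the state of that animal, are not given in the labels.

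Genes lower in the breeding ovary were followed in the same pairs. In the female liver pair 25 of 192 were 2-fold or more lower in the breeding female (13.0%, against 3.65% of all genes) and 15 higher (7.81%, against 8.42%). In the female kidney pair 13 of 216 were lower (6.02%, against 4.12%) and 21 higher (9.72%, against 5.25%), and in the female frontal brain pair 4 of 219 were lower (1.83%, against 0.823%) and 7 higher (3.20%, against 1.60%). In testis 7 of 236 were lower (2.97%, against 2.64%) and 10 higher (4.24%, against 0.634%). In male kidney 8 of 210 were lower (3.81%, against 1.5%) and 10 higher (4.76%, against 2.09%). In male liver 6 of 179 were lower (3.35%, against 2.52%) and 12 higher (6.70%, against 2.75%), and in male brain 5 of 230 were lower (2.17%, against 1.74%) and 19 higher (8.26%, against 2.40%). The share of lower genes was above that of all genes in each of the 7 pairs, and so was the share of higher genes apart from female liver.

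**Figure D5:**
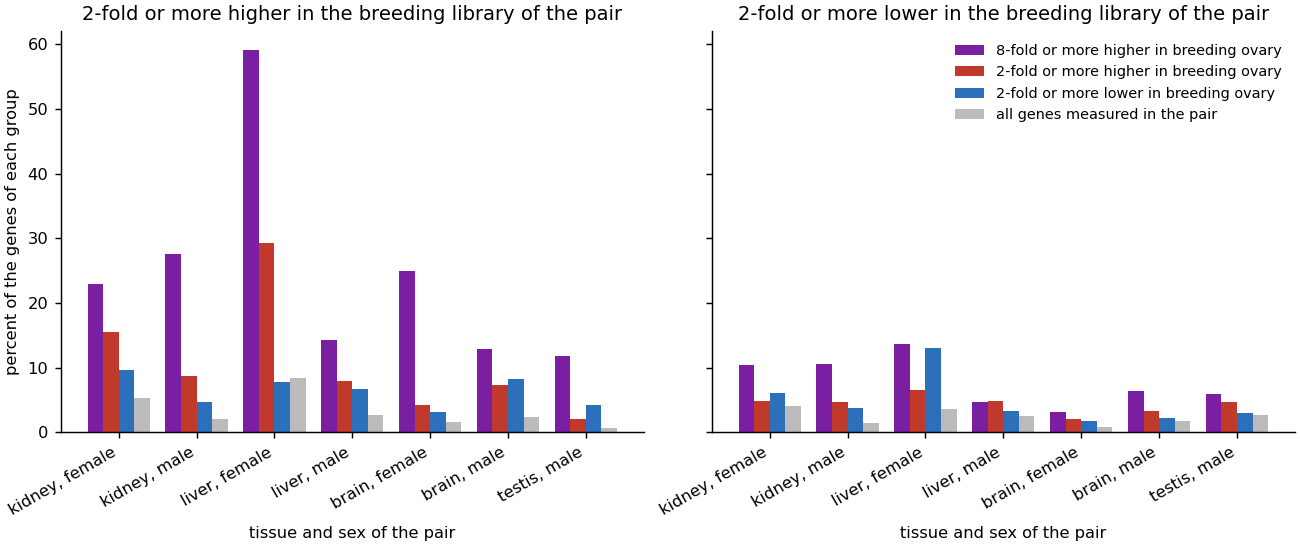
Share of genes 2-fold or more higher (left) or lower (right) in the breeding library of each pair matched for tissue and sex, for genes 8-fold or more higher in the breeding ovary (purple), 2-fold or more higher (red), 2-fold or more lower (blue) and all genes measured in the pair (grey). The female liver pair has the tallest bars on the left, 59.1% for the purple and 29.4% for the red group, against 8.42% of all genes.

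Few genes were higher in the breeding female throughout. Of the 896 genes, 627 were 2-fold or more higher in none of the female kidney, liver and brain pairs, 225 in 1 of them, 40 in 2 and 4 in all 3. Of all 14109 genes, 12623 were higher in none, 1353 in 1, 126 in 2 and 7 in all 3. The 896 were thus higher in at least 1 of these pairs more often than all genes. The 4 of them higher in all 3 were DMR_07981 and 3 genes with a lower ovary log2 ratio of RPKM + 1. In the second the levels were 23.6 RPKM in the breeding ovary, against 0.0565 in the non-breeding one, and 292.4 RPKM in the breeding female liver against 0 in the non-breeding female liver. In the third they were 230.8 RPKM in the breeding ovary, against 40.9 in the non-breeding one, 1458.8 in the breeding female liver against 87.8 in the non-breeding one, 117.9 in the breeding female kidney against 32.3, and 34.9 in the breeding female frontal brain against 13.6. In the last they were 66.9 RPKM in the breeding ovary, against 15.8 in the non-breeding one. The breeding female liver held 302.2 against 29.4 in the non-breeding one, the breeding female kidney 35.4 against 14.9, and the breeding female frontal brain 15.0 against 5.48. Of the 270 lower genes, 0 were lower in all 3 of those pairs and 6 in 2 of them, against 1 and 54 of all 14109 genes.

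Correlations of the ovary log2 ratio with those of the other pairs, across genes measured in both, were low apart from female liver. Pearson's r was 0.314 with the female liver pair (12422 genes), 0.115 with the female kidney pair, 0.0117 with the female frontal brain pair, 0.0649 with male kidney, 0.0460 with male liver, 0.0658 with male brain and -0.117 with testis. In female liver Spearman's rho was 0.168. These values describe genes within single pairs of libraries.

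The changed genes were shorter than others. Coding length had a median of 972 bases among the higher and 1029 among the lower genes, against 1311 bases over all genes measured. Differences were most frequent among the lowest genes in the 3 pairs examined by level. In the ovary the share past 2-fold, from the fifth of genes with the lowest to that with the highest mean level, was 17.5%, 9.04%, 5.67%, 4.22% and 4.89%. In the female kidney pair it was 12.7%, 9.11%, 7.36%, 6.98% and 7.94%, and in the female frontal brain pair 4.59%, 2.49%, 1.55%, 0.892% and 1.03%. The excess of higher over lower genes held at every level in ovary, where higher genes took 81.4%, 73.3%, 75.6%, 77.3% and 68.1% of those past 2-fold. In the female kidney pair that share was 72.5% among the lowest genes and 40.2% among the highest.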

How the data were processed

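Poly(A) RNA of 16 libraries was sequenced from both ends on an Illumina instrument after cDNA synthesis that does not mark strand, per the labels' protocols. The authors deposited 1 table of RPKM values. TopHat 1.3.1 is named in the submitters' processing notes. The sources used here name no genome build, annotation or counter. Whole reads were recovered from the RPKM values (a solution for 100% of genes, lengths taken as multiples of 3 bases). Rebuilt values deviated by at most 2.93e-14 of their size. What the divisor counts is not given, and reads on genes were 1.55 to 1.97 times it in liver and 0.665 to 0.945 times elsewhere, so deposited liver levels are high relative to other tissues.

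Ratios used a pseudocount of 1 RPKM and genes at 1 RPKM or more in either library. Each side has 1 library, so no test was run. Pairs of kidney and of brain libraries gave the yardstick. They differ in sex or status, and age differs or is not given. By rule, the 2 highest and 2 lowest ratios are named and the 20 highest and 20 lowest described by rank, since identifiers have no gene names. A single gene past these is described where a paragraph says what singles it out, having been picked after its values were seen. The comparison, the classes and the limits were chosen with earlier results of these data known. Recovery and counting were tested on simulated data. Python 3.11.15 with numpy 2.4.6, pandas 2.3.3 and scipy 1.17.1 was used. All 16 columns were used.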

Additional observations from a re-analysis of the deposited data

Results flagged for a closer look

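The 4 named genes were examined in the 4 libraries each of kidney, liver and brain for a library standing apart by Dixon's criterion for the gap to the nearest library as a share of the range. Chance flags about 1 in 20 groups, and 12 were examined. In 3 of them a library stood apart. DMR_07981 stood at 15771.6 RPKM in the breeding female liver, with a gap of 0.984 of the range. DMR_01018 stood at 11480.4 RPKM in the same library, with a gap of 0.962. DMR_18421 stood at 0.297 RPKM in the non-breeding male liver, with a gap of 0.867, a level below the 1 RPKM used as the limit of measurement. The 4 libraries of a tissue differ in sex and status, so they are not replicates.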

How the results depend on the processing

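Of 127 values recomputed under alternative settings, 97 moved by less than the tolerance and 30 by more. The median log2 ratio of the ovary pair, 0.015, turned to -0.0024 with 1 RPKM required in both ovaries and to -0.014 with 10 RPKM in either, and no other value changed sign. With a pseudocount of 0.1 in place of 1, 1301 genes were higher (896 before, a move within the tolerance) and 476 lower (270 before). The higher share then became 34.0% of kidney-enriched, 19.6% of brain-enriched, 11.1% of testis-enriched, 2.96% of broad, 22.8% of mixed and 33.3% of low genes. The lower share became 5.32% of brain-enriched, 7.76% of testis-enriched, 1.45% of broad, 7.83% of mixed and 13.8% of low genes. Of the genes higher in ovary, 20.9% were then higher in female kidney, 12.1% in male kidney, 34.4% in female liver, 10.4% in male liver and 7.03% in female frontal brain. With 1 RPKM required in both ovaries 518 genes were higher and 241 lower, and with 10 RPKM in either 402 and 186. Higher genes then made up 68.2% and 68.4% of those past 2-fold, against 76.8% in the main setting. The 10 RPKM limit gave 22.2% of mixed and 50% of low genes higher, and 7% of kidney-enriched, 5.23% of testis-enriched, 10.9% of mixed and 0% of low genes lower. Scaled to reads on genes, 187 genes in place of 407 were liver-enriched and 1060 in place of 657 testis-enriched among those measured in ovary. Of the liver-enriched genes 26.2% were then higher, and 5.04% of the higher genes were higher in male liver. With enrichment at a log2 difference of 3, 25.5% of liver-enriched and 9.03% of testis-enriched genes were higher. The causes of these shifts were not tested. By the half-width between the 16th and 84th percentile, the ovary spread was 1.01 times the median pair. By SD it was 1.23 times, and 1.139 to 1.304 times with each kidney or brain library left out. No paired analysis was possible because each ovary group holds 1 library. The single library a side limits every ovary value, and depth limits genes under 20 reads.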
